A study of Mus musculus with 20 samples.

Results

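Antibody genes were counted in RNA from sorted mouse CD4+ T cells, and the 165 immunoglobulin gene segments described here are those that gave at least 20 counts summed over the 20 libraries of the study. They were taken from 268 rows that the count table annotates as immunoglobulin variable (V), diversity (D), joining (J) or constant (C) genes without a pseudogene tag, out of 47729 rows in all. The heavy chain contributed 88 members, made up of 76 of 113 V rows, all 4 J rows and all 8 C rows. The kappa chain contributed 71 members, 70 of 102 V rows and its 1 C gene, and the lambda chain contributed 6, all 3 V rows and 3 of 4 C rows. No D row of 19, no kappa J row of 5 and no lambda J row of 5 reached the threshold. Of the 103 rows below it, 52 had no count in any library. Just inside it were Ighv1-34, Ighv1-20 and Ighv5-12 with 20 counts each, Igkv1-133 with 21 and Ighv1-63 with 23, and just outside it were Ighv5-15 with 19, Ighv3-1 and Ighv8-5 with 18, and Igkj5 and Ighv14-1 with 17.

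B cells and their antibody-secreting descendants, plasma cells, build an antibody gene by joining V, D and J segments of the heavy chain, and V and J segments of a light chain, to a constant gene. Ighm and Ighd encode the constant regions of the IgM and IgD that mature unswitched B cells carry, and class switching replaces them with Ighg1, Ighg2b, Ighg2c, Ighg3, Ighe or Igha, the constant regions of the IgG subclasses, IgE and IgA. T cells rearrange T cell receptor genes in place of antibody genes, although unrearranged constant genes, Ighm above all, can be transcribed from their own promoters without a V segment.

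The study asked how loss of DOT1L, the methyltransferase that acts on lysine 79 of histone H3, changes CD4+ T cells. The 10 groups, of 2 libraries each, were sequenced from CD4+ cells taken from the spleen and from peripheral lymph nodes of mice. KO cells came from CD4Cre+DOT1L FL/FL mice, in which Cre under Cd4 control acts in T cells on a floxed Dot1l gene, and WT cells from mice that carried the same Cre alone. For each genotype there were Th1 cultures, Th2 cultures and naive cells, the starting population of the cultures. WT Th1 and Th2 cultures were also made with 1 µM SGC0946, a DOT1L inhibitor, or with 1 µM SGC0649, its control compound. Cultures were stimulated for 4 days on bound anti-CD3 and anti-CD28 at 1 µg/ml each, and live CD4+ cells were then sorted. Th1 medium held IL-2 and IL-12 at 10 ng/ml each with anti-IL-4 at 10 µg/ml, and Th2 medium held IL-2 and IL-4 at 10 ng/ml each with anti-IFN-g at 10 µg/ml. The labels do not give the age of the mice or say whether the 2 libraries of a group came from separate mice, so p-values measure only the spread between these libraries, which may be technical.

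Each library had 10128143 to 13583185 counts assigned to genes, and the members together took 893 to 99144 of them, or 0.00870% to 0.917%. A member was called where the edgeR quasi-likelihood test gave a Benjamini-Hochberg adjusted p under 0.05 over the 19427 genes with 20 or more summed counts. Levels are CPM, the counts of a gene per 1000000 counts of its library, scaled by edgeR's trimmed mean of M values, and fold changes are on the log2 scale with their standard error (SE). Dot1l, whose counts over the whole gene need not show the deletion of an exon, was at 148 ± 12.6 CPM in KO naive cells and 157 ± 6.19 CPM in WT naive cells (SD, n = 2 each), a difference that was not called. Relative to WT cells, Dot1l had a log2 fold change of -0.35 ± 0.11 in KO Th1 cultures (SE, edgeR adjusted p = 0.0204) and of -0.57 ± 0.12 in KO Th2 cultures (adjusted p = 0.000457).

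The sequences of a few members show what was being counted. The V segments below are the ones on which single results turn, with Iglv1, the V segment with the most counts of all, shown in comparison. Each is the coding part of the main V exon in the GENCODE annotation of GRCm38, printed 5′ to 3′ on the coding strand up to its 3′ end, and the capitals mark its last in-frame cysteine codon with the 2 codons before it. Iglv1 lies at chr16:19085017-19085316, Igkv6-14 at chr6:70434952-70435249, Igkv12-89 at chr6:68834846-68835143, Ighv1-23 at chr12:114764450-114764749 and Ighv1-5 at chr12:114513330-114513629, all on the minus strand.
Iglv1: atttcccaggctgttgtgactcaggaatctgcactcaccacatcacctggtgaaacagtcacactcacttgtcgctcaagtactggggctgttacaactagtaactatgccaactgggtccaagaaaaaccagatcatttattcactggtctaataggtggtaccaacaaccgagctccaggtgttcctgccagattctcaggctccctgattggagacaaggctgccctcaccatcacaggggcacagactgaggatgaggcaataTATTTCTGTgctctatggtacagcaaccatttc
Igkv6-14: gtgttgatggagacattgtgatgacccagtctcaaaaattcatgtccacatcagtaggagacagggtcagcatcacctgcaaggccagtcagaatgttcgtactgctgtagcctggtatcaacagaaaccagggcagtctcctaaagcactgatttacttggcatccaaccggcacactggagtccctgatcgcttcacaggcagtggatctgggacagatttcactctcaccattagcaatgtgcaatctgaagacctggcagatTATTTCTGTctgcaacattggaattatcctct
Igkv12-89: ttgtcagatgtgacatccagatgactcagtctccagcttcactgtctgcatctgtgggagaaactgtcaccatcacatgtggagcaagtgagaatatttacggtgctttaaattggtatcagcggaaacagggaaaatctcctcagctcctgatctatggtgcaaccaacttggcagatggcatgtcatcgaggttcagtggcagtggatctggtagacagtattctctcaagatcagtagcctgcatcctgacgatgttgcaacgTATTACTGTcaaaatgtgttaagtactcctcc
Ighv1-23: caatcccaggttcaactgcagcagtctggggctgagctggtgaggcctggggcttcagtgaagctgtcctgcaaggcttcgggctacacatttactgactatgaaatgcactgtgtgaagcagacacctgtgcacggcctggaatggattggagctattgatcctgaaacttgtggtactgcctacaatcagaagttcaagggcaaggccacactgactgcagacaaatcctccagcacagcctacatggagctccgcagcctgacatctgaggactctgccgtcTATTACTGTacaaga
Ighv1-5: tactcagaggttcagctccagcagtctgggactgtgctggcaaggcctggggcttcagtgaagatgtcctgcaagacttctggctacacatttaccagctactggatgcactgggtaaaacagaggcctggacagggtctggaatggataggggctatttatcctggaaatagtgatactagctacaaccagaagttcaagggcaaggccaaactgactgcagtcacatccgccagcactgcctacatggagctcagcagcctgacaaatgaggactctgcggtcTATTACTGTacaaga

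Many V segments resemble each other, which bears on how reads were assigned to them. Each of the 149 V members was found in the annotation, and 82 of them, 44 of 76 heavy, 36 of 70 kappa and 2 of 3 lambda, were at least 95% identical to another annotated V exon. None was identical to another. The lowest identity to the nearest V exon was 55.9%, the median 95.4% and the highest 99.0%. Of the segments printed above, Ighv1-23 was 98.4% identical to Ighv1-15 and shared a run of 88 bases with it, and Iglv1 was 97.0% identical to Iglv2 with a shared run of 104 bases. Igkv6-14 was 94.0% identical to Igkv6-23, Ighv1-5 was 86.2% identical to Ighv1-12 and Igkv12-89 was 85.9% identical to Igkv12-46, with longest shared runs of 78, 22 and 33 bases. The authors' counter left out reads that map to several places, and 27.4% to 34.9% of the alignments of a library over all genes carried that status, so counts of V segments with near copies are uncertain.

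The 4 heavy J segments are short, and few reads fell on them. They are shown because all 4 passed the threshold while no light-chain J segment did, and the capitals mark the 4 codons from tryptophan that all of them carry, which encode tryptophan, glycine, a variable residue and glycine. They lie on the minus strand at chr12:113429781-113429833 (Ighj1), chr12:113429468-113429515 (Ighj2), chr12:113429085-113429132 (Ighj3) and chr12:113428514-113428567 (Ighj4).
Ighj1: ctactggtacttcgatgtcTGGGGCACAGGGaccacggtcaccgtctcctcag
Ighj2: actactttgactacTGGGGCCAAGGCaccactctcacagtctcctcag
Ighj3: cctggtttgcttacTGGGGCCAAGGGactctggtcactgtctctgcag
Ighj4: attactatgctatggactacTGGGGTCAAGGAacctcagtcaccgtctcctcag

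Immunoglobulin RNA was concentrated in the naive libraries. Summed over the members, it reached 8491 and 3647 CPM in KO naive cells and 2191 and 1619 CPM in WT naive cells, whereas the 16 cultures held 86.6 CPM at the lowest, 140 CPM at the median and 412 CPM at the highest. The 4 naive libraries therefore lay above every culture, and both KO naive libraries above both WT naive libraries. In bulk RNA, fewer cells of a type and less RNA per cell cannot be told apart.

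**Figure D1:**
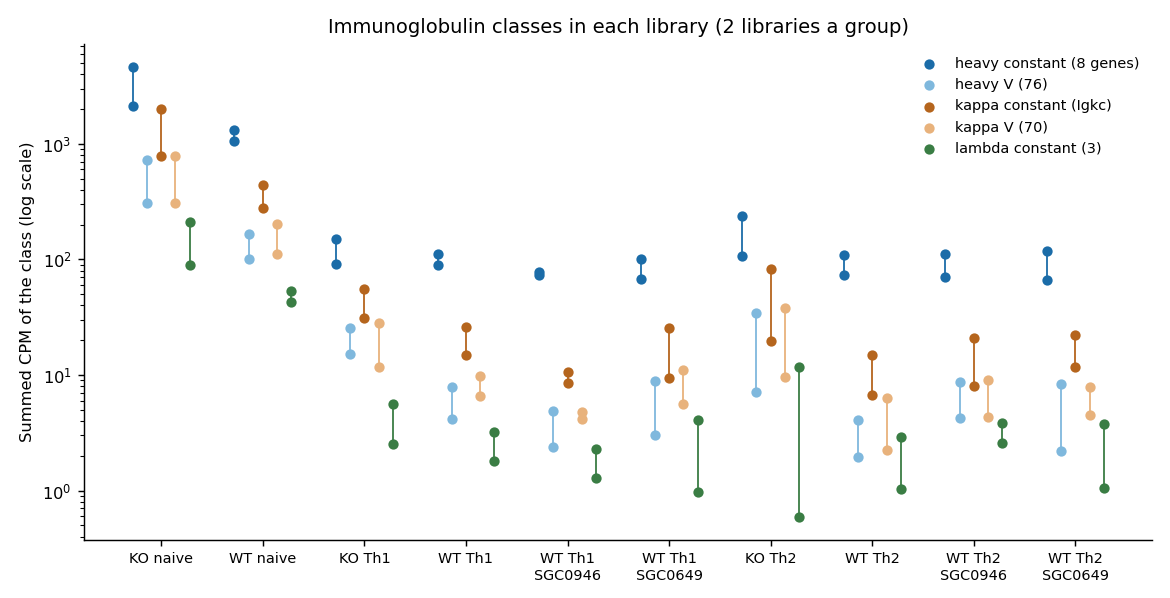
Summed level of immunoglobulin members in each library, in CPM on a log axis, for heavy constant genes, heavy V segments, Igkc, kappa V segments and lambda constant genes, with 1 point for each of the 2 libraries of a group joined by a line. Both naive groups stand above the culture groups in every class plotted, and the 2 KO naive libraries lie above the 2 WT naive libraries.

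Every class of segment was higher on average in KO naive than in WT naive cells. Over class means the ratio of KO naive to WT naive cells was 2.96 for heavy-chain members, 3.77 for kappa members and 3.18 for lambda members. Heavy constant genes summed to 4651 and 2113 CPM in KO naive cells against 1318 and 1048 CPM in WT naive cells. Heavy V segments summed to 722 and 306 CPM in KO naive cells against 166 and 100 CPM in WT naive cells, and kappa V segments to 782 and 308 CPM against 202 and 112 CPM. Lambda constant genes summed to 212 and 88.7 CPM in KO naive cells and to 42.7 and 53.5 CPM in WT naive cells. In each of these sums the groups did not overlap, and KO naive replicate 1 was the highest of the 4 libraries.

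Of the 165 members, 35 rose and 1 fell in KO naive cells relative to WT naive cells, with a background of 18.8% of all genes called in either direction, 10.8% higher and 8.05% lower. The share of members called in either direction was thus close to the background, the share called higher was above it, and the median log2 fold change of the members was 1.91, against 0.00 over all genes tested. KO naive libraries held the most member counts, so some members could pass the 20-count sum mainly through them. The share called higher and the median are therefore not independent of the choice of members. By kind, 17 of 76 heavy V, 14 of 70 kappa V, 3 of 8 heavy constant and 1 of 4 J members rose, none of 3 lambda V or 3 lambda constant members was called, and 1 kappa V member fell. Leaving out a KO naive library gave 20 calls (replicate 1) or 71 (replicate 2), and leaving out a WT naive library gave 21 (replicate 1) or 12 (replicate 2). Other methods gave 13 calls (DESeq2), 67 (the replicate block), 69 (voom) and 103 (no filter on low counts).

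Among the heavy constant genes, the switched isotypes Igha, Ighg1 and Ighe rose in KO naive cells. Igha, the constant gene of IgA (chr12:113254830-113260236, minus strand), was at 2703 and 1206 CPM in KO naive cells and at 148 and 229 CPM in WT naive cells, with no overlap. Its log2 fold change was 3.37 ± 0.77 (SE, adjusted p = 0.0120 by edgeR's test). The call was lost when KO naive replicate 1 (adjusted p = 0.0919), WT naive replicate 1 (0.107) or WT naive replicate 2 (0.0739) was left out, under DESeq2 (0.0528) and in a fit of only the libraries compared (0.111).

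Ighg1, which encodes the constant region of IgG1 (chr12:113325240-113330523, minus strand), had 197 and 50.5 CPM in KO naive cells and 10.99 and 12.6 CPM in WT naive cells, a log2 fold change of 3.39 ± 0.81 (SE, edgeR adjusted p = 0.0150). Leaving out KO naive replicate 1, WT naive replicate 1 or WT naive replicate 2 ended this call, with adjusted p values of 0.17, 0.102 and 0.101, as did a fit of only the libraries compared (0.214). Ighe, of IgE (chr12:113271174-113273248, minus strand), had 104 and 20 counts in KO naive cells and 0 and 9 counts in WT naive cells, with a log2 fold change of 3.72 ± 1.13 (SE, edgeR adjusted p = 0.0476). Each of these libraries left out ended this call too, at 0.316 for KO naive replicate 1 and at 0.185 and 0.058 for WT naive replicates 1 and 2, and so did a fit of only the libraries compared (0.305).

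The other IgG constant genes were not called. Ighg2b was at 400 and 75.5 CPM in KO naive cells and at 54.0 and 47.2 CPM in WT naive cells (log2 fold change 2.23, edgeR adjusted p = 0.0567). Ighg3 was at 67.9 and 26.6 CPM in KO naive cells and at 17.1 and 14.6 CPM in WT naive cells, and Ighg2c at 51.6 and 43.8 CPM against 35.9 and 4.16 CPM. All 3 had both KO naive values above both WT naive values.

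The unswitched genes did not pass the test and lay close together. Ighm (chr12:113418558-113422730, minus strand) was at 1214 and 705 CPM in KO naive cells and at 1046 and 736 CPM in WT naive cells, a log2 fold change of 0.11 ± 0.44 (SE, edgeR adjusted p = 0.927) with overlapping groups. Ighd, at 8.39 and 4.12 CPM in KO naive cells and 5.86 and 4.33 CPM in WT naive cells, overlapped as well (log2 fold change 0.30, adjusted p = 0.794). The heavy constant RNA therefore had a different makeup in the 2 genotypes. Ighm took 26.1% (95% exact binomial interval 25.7 to 26.5%) and 33.4% (32.8 to 33.9%) of heavy constant counts in KO naive cells, against 79.4% (78.7 to 80.0%) and 70.2% (69.4 to 71.0%) in WT naive cells. The switched genes together took 73.7% and 66.5% in KO naive cells, against 20.2% and 29.4% in WT naive cells. These intervals cover counting error only, and with 2 libraries against 2 a permutation test of a share could not pass the threshold, so none was run.

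**Figure D2:**
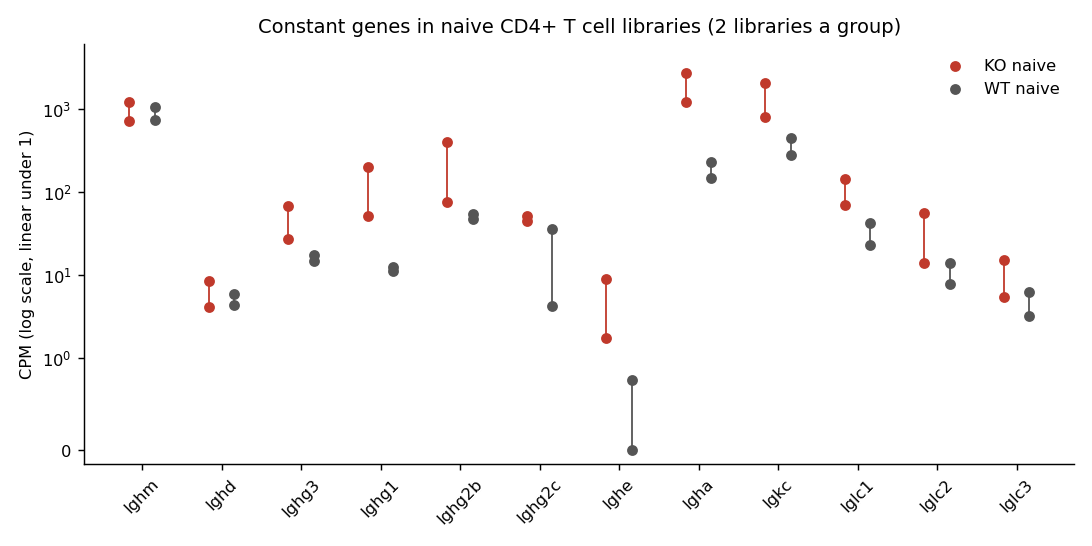
Level of each of the 12 constant genes in the naive libraries, in CPM on an axis that is logarithmic above 1 and linear under it, with KO naive cells left of WT naive cells and 1 point for each library. KO naive points lie well above WT naive points for Igha, Ighg1 and Ighe, while for Ighm and Ighd the points of the 2 genotypes overlap.

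Per kilobase of gene length, which allows genes to be compared, Igkc was the highest constant gene in both naive groups, with a mean level of 2627 CPM per kilobase in KO naive cells and 674 in WT naive cells. Igha came next in KO naive cells at 733 CPM per kilobase, followed by Ighm at 509. In WT naive cells Ighm was at 472 CPM per kilobase, Iglc1 at 71.6 and Igha at 70.6.

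The light-chain constant genes had higher means in KO naive cells but none was called. Igkc, the kappa constant gene (chr6:70726435-70726966, plus strand), had 2013 and 782 CPM in KO naive cells and 439 and 278 CPM in WT naive cells, a log2 fold change of 1.96 ± 0.70 (SE, edgeR adjusted p = 0.0799). Iglc1, Iglc2 and Iglc3, the lambda constant genes on chromosome 16, had log2 fold changes of 1.70, 1.66 and 1.13 with adjusted p values of 0.198, 0.158 and 0.169. Both KO naive values were above both WT naive values for Igkc and Iglc1, and the groups overlapped for Iglc2 and Iglc3. The ratio of kappa to lambda constant counts was 9.51 and 8.82 in KO naive cells and 10.3 and 5.20 in WT naive cells, so the groups overlapped. Ighm counts over Igkc counts were 0.603 and 0.901 in KO naive cells against 2.38 and 2.65 in WT naive cells, with no overlap.

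Of the J segments, Ighj4 was called. It had 57 and 19 counts in KO naive cells and 7 and 12 counts in WT naive cells, a log2 fold change of 1.95 ± 0.55 (SE, edgeR adjusted p = 0.0184). The call ended when KO naive replicate 1 (adjusted p = 0.428), WT naive replicate 1 (0.147) or WT naive replicate 2 (0.0704) was dropped. Ighj1, Ighj2 and Ighj3 had log2 fold changes of 1.01, 0.48 and 1.48 and adjusted p values of 0.232, 0.769 and 0.189.

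The V segments called higher in KO naive cells were spread over many subgroups of both chains. Igkv6-14, printed above, had 134 and 66 counts in KO naive cells and 0 and 2 counts in WT naive cells, a log2 fold change of 6.44 ± 0.87 (SE, edgeR adjusted p = 0.000134), and it stayed called under every alternative tried. Its nearest relative Igkv6-23 had 103 and 27 counts in KO naive cells and 19 and 6 counts in WT naive cells. Igkv12-46 had 426 and 81 counts in KO naive cells and 8 and 4 in WT naive cells (5.33 ± 1.21 SE, adjusted p = 0.0147). That call was lost without KO naive replicate 1 (0.0685), WT naive replicate 1 (0.0822) or WT naive replicate 2 (0.118), and with only the libraries compared (0.201).

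A further 3 kappa V segments passed the test with no overlap between genotypes. Igkv5-43 had 67 and 100 counts in KO naive cells and 8 and 5 in WT naive cells, a log2 fold change of 3.62 ± 0.65 (SE, edgeR adjusted p = 0.0014), and was called under every alternative. Igkv4-53 had 47 and 357 counts in KO naive cells and 20 and 6 in WT naive cells, a log2 fold change of 3.90 (adjusted p = 0.0488), lost without KO naive replicate 2 (0.204), WT naive replicate 1 (0.122) or WT naive replicate 2 (0.236), under DESeq2 (0.0762) and with only the libraries compared (0.315). Here KO naive replicate 2 was the higher library, unlike in the summed classes. Igkv4-91 had 227 and 109 counts in KO naive cells and 14 and 15 in WT naive cells, a log2 fold change of 3.48 (adjusted p = 0.0189), lost without KO naive replicate 1 (0.104), WT naive replicate 1 (0.112), WT naive replicate 2 (0.125) or under DESeq2 (0.521).

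Of the 5 heavy V segments with the most counts, 2 rose. Ighv6-3 was at 87.0 and 27.8 CPM in KO naive cells and at 10.5 and 3.56 CPM in WT naive cells (log2 fold change 3.03, edgeR adjusted p = 0.0111). Ighv1-53 was at 34.0 and 16.9 CPM in KO naive cells and at 3.30 and 3.40 CPM in WT naive cells (2.92, adjusted p = 0.0265). Ighv8-12 had 725 and 40 counts in KO naive cells and 21 and 6 in WT naive cells, and with that gap between the KO libraries it was not called (4.76, adjusted p = 0.102). Ighv1-78 and Ighv3-6 had log2 fold changes of 2.58 and -0.48 and were not called either. Nor were any of the 5 kappa V segments with the most counts, Igkv1-110, Igkv10-96, Igkv15-103, Igkv1-117 and Igkv1-135, at log2 fold changes of 2.02, 1.91, 1.13, 1.93 and 1.27.

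The lambda V segments, few in the mouse, drew many counts but no call. Iglv1 was at 73.7 and 37.6 CPM in KO naive cells and at 13.7 and 21.1 CPM in WT naive cells, with no overlap (log2 fold change 1.67, edgeR adjusted p = 0.182). Iglv2 and Iglv3 had log2 fold changes of 1.96 and 1.41 with adjusted p values of 0.211 and 0.255.

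A single member fell. Igkv12-89, singled out after its values were seen, had 17 and 13 counts in KO naive cells and 65 and 57 counts in WT naive cells, a log2 fold change of -2.06 ± 0.42 (SE, edgeR adjusted p = 0.00365). Replicates were close in both genotypes. The call was lost under DESeq2 (adjusted p = 0.0808) and held under the other alternatives.

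**Figure D3:**
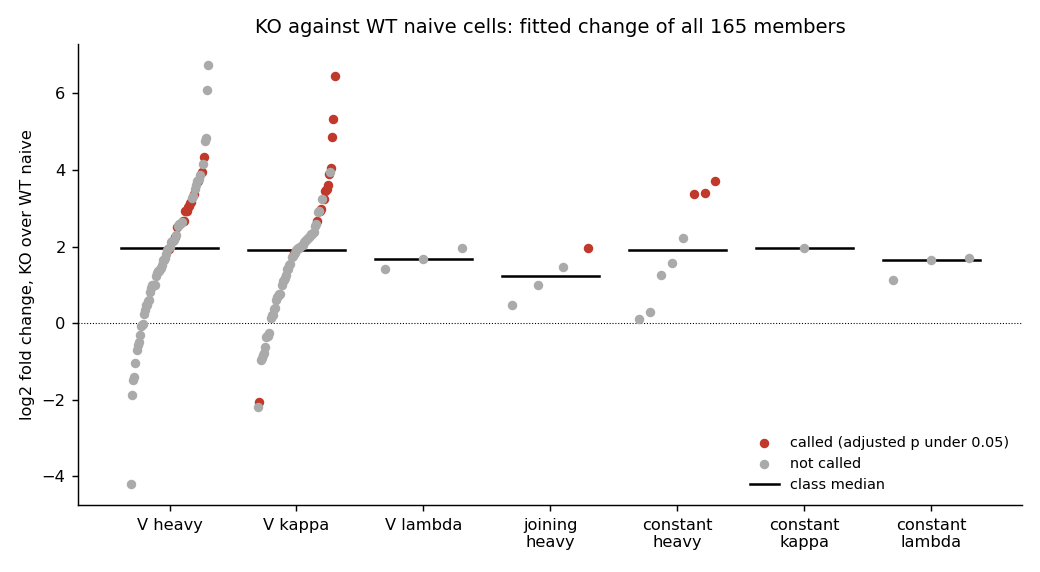
Fitted log2 fold change of KO naive over WT naive cells for each of the 165 members, grouped by kind of segment and ordered by value, with a line at the median of each kind and with called members coloured apart from the rest. Every median lies above 0, and the only called member below 0 is Igkv12-89 at -2.06.

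V segment use was broad in all 4 naive libraries. V segments drew 18739 and 7662 counts in KO naive cells and 4243 and 2784 in WT naive cells. The effective number of V segments, the inverse of the sum of their squared shares, was 46.7 and 48.5 in KO naive cells and 47.6 and 37.2 in WT naive cells. The ranks of the 149 V segments correlated at 0.565 between the KO naive libraries, at 0.741 between the WT naive libraries and at 0.460 to 0.611 between a KO and a WT library (Spearman's rho across segments, which share depth and are not independent replicates). The value between the KO libraries lay within the range found between genotypes, and that between the WT libraries lay above it. In the 16 cultures, with 48 to 772 V counts each, the effective number was 8.44 to 39.2, and counts this low limit it.

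Markers of other cell types also differed in this comparison, in which 10.8% of all genes were called higher and 8.05% lower. The 12 B cell markers summed to 107 and 64.5 CPM in KO naive cells and to 36.5 and 28.3 CPM in WT naive cells, and 3 of them rose and none fell, Cd22, a B cell inhibitory receptor, by 2.41 (log2, edgeR adjusted p = 0.0131). Cd79b, the signalling chain of the B cell receptor, rose by 1.56 (adjusted p = 0.0035). The B cell defining genes were low but not at 0, with 58 and 31 counts of Cd79a in KO naive cells against 21 and 16 in WT naive cells and 45 and 11 of Ms4a1 against 19 and 5. Cd79a was not called.

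The 8 plasma cell markers summed to 790 and 450 CPM in KO naive cells and to 367 and 339 CPM in WT naive cells, with 3 higher and 1 lower. Jchain, which links IgA and IgM into polymers, had 5774 and 2301 counts in KO naive cells and 1200 and 831 in WT naive cells, a log2 fold change of 1.94 ± 0.51 (SE, edgeR adjusted p = 0.0225). At 495 and 198 CPM in KO naive cells and 110 and 70.5 CPM in WT naive cells, Jchain made up most of the difference between the plasma cell sums. Of 13 genes of B cell receptor signalling, 7 rose and none fell, among them Syk and Lyn, kinases that myeloid cells also express. Of the 8 myeloid and dendritic markers 5 rose and none fell (883 and 429 CPM in KO naive cells, 343 and 264 in WT naive cells), and of the 8 mast cell and basophil markers 3 rose (149 and 70.0 CPM, against 49.7 and 26.6). The 10 pan T cell markers summed to 3990 and 4437 CPM in KO naive cells against 5216 and 5343 CPM in WT naive cells, with 1 higher and 5 lower, among them Cd4 at a log2 fold change of -1.27. The part of these differences in the immunoglobulin result was not tested.

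Genes that rearrange, switch and transcribe antibody loci were also counted. None of 13 recombination and class switching genes tested was called in KO naive cells. Rag2, a subunit of the recombinase, had no count in any library. Of 15 octamer and enhancer factors 3 rose and 2 fell. Pou2af1 and Pou2f2, coactivator and octamer factor of immunoglobulin promoters, had log2 fold changes of 0.15 and 0.03 and were not called.

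In Th1 cultures, KO cells held 268 and 153 CPM of immunoglobulin RNA over all members and WT cells 161 and 118 CPM, so the groups overlapped. In KO Th1 cells 7 of 165 members rose and none fell, a share far below the background of 36.7% of all genes called, with 18.7% called higher. Igha, the only constant gene among them, was at 47.8 and 41.1 CPM in KO Th1 cells, against 2.02 and 0.0788 CPM in WT Th1 cells (633 and 522 counts against 25 and 1). Its log2 fold change was 5.41 ± 1.29 (SE, edgeR adjusted p = 0.00743), and leaving out WT Th1 replicate 2 ended the call (0.0636). Igkc, at 55.8 and 31.2 CPM in KO Th1 cells and 25.7 and 14.9 CPM in WT Th1 cells, and Ighm, at 83.5 and 42.9 CPM against 93.3 and 76.5 CPM, were not called (log2 fold changes 1.10 and -0.42, adjusted p = 0.327 and 0.534).

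The other 6 calls were V segments with few counts. Ighv1-23, singled out after its values were seen, had 34 and 20 counts in KO Th1 cells and 0 and 2 in WT Th1 cells, a log2 fold change of 4.52 ± 0.81 (SE, edgeR adjusted p = 0.000192). It had 0 to 5 counts in every other library, and its near copy Ighv1-15, whose sequence shares long runs with it, had 17 and 28 counts in KO Th1 cells and 3 and 0 in WT Th1 cells. Igkv5-43 had 6 and 11 counts in KO Th1 cells and 1 and 0 in WT Th1 cells (3.71, adjusted p = 0.0393).

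For segments with no count in either WT Th1 library, a bound on the fold can be given from 3 counts over the group. Ighv1-9, with 25 and 5 counts in KO Th1 cells, was at least 9.66-fold higher (edgeR adjusted p = 0.00943), and Ighv6-6, with 18 and 9 counts, at least 8.70-fold higher (0.0452). Ighv5-4, with 6 and 5 counts, was at least 3.54-fold higher (0.0234), and Igkv12-89, with 4 and 1 counts, at least 1.61-fold higher (0.0478). Each of these 4 calls, and that of Igkv5-43, was lost without WT Th1 replicate 1, without WT Th1 replicate 2 or without KO Th1 replicate 1, with adjusted p values of 0.0528 to 0.283. The count of 7 calls was 4 without KO Th1 replicate 1, 5 without KO Th1 replicate 2 and 2 without either WT Th1 library, and it was 18 with only the libraries compared and 42 with no filter on low counts.

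Beside these values, no B cell marker of 12 rose and 1 fell in KO Th1 cells, and the list summed to 29.4 and 7.72 CPM against 38.0 and 23.1 CPM in WT Th1 cells. Of the KO Th1 libraries, replicate 1 had 17 counts of Cd79a and 25 of Ms4a1, and replicate 2 had none of Cd79a and 3 of Ms4a1, with 633 and 522 counts of Igha. Of the 8 myeloid and dendritic markers 3 rose and none fell, and the list summed to 66.5 and 60.9 CPM in KO Th1 cells against 28.1 and 25.4 CPM in WT Th1 cells, with no overlap. Of the 10 pan T cell markers 1 rose and 8 fell (4514 and 4430 CPM in KO Th1 cells, 6553 and 6381 CPM in WT Th1 cells). Over all 19427 genes tested, 3636 rose and 3485 fell in KO Th1 cells. Of the 8 plasma cell markers 1 rose and 1 fell, and the list summed to 411 and 396 CPM in KO Th1 cells against 421 and 409 CPM in WT Th1 cells, with overlap. Within it Jchain had a log2 fold change of 2.15 and was not called (edgeR adjusted p = 0.0971). All 8 mast cell and basophil markers rose, Fcer1a, the alpha chain of the high-affinity IgE receptor, to 3082 and 1206 counts in KO Th1 cells against 166 and 98 in WT Th1 cells. Their part in the immunoglobulin values was not tested.

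In Th2 cultures the members summed to 144 and 412 CPM in KO cells and to 136 and 87.2 CPM in WT cells, and KO Th2 replicate 2 stood apart from the other 3 libraries. In KO Th2 cells 5 of 165 members rose and none fell, against a background of 39.1%, with 20.4% higher. Only 62 members had more than 3 counts over either group, which limits this share. Ighg2b, the constant gene of IgG2b, had 51 and 108 counts in KO Th2 cells and none in WT Th2 cells, at least 54.0-fold higher (edgeR adjusted p = 0.0456). Igkv15-103 had 14 and 41 counts in KO Th2 cells and none in WT Th2 cells, at least 18.7-fold higher (0.0310). Igkv5-43, with 1 and 9 counts in KO Th2 cells and none in WT Th2 cells, was at least 3.39-fold higher (0.0439).

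Igkv12-46 had 10 and 73 counts in KO Th2 cells and 1 and 0 in WT Th2 cells (log2 fold change 6.17, edgeR adjusted p = 0.0400), and Ighv1-15 had 0 and 55 against 1 and 0 (5.59, adjusted p = 0.0491). Ighv1-15 thus overlapped, and all its KO Th2 counts came from replicate 2. All 5 calls were lost without KO Th2 replicate 2, without WT Th2 replicate 1 or without WT Th2 replicate 2, which each left 0 calls, while 15 members were called without KO Th2 replicate 1. Other methods called 11 (DESeq2), 2 (voom), 8 (the replicate block) and 39 (no filter on low counts). Igkc, at 19.5 and 83.1 CPM in KO Th2 cells and 14.8 and 6.73 CPM in WT Th2 cells, was not called (2.21, adjusted p = 0.0700). Igha was at 2.69 and 34.2 CPM against 0.344 and 7.12 CPM, overlapping and not called (2.31, adjusted p = 0.157).

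The B cell markers again did not rise in KO Th2 cells, with none of 12 higher and 2 lower (26.7 and 19.2 CPM in KO Th2 cells, 49.4 and 27.5 CPM in WT Th2 cells). Over all 19427 genes tested, 3969 rose and 3618 fell in KO Th2 cells. Of the 8 myeloid and dendritic markers 3 rose and 1 fell, and the list summed to 99.1 and 142 CPM in KO Th2 cells against 30.2 and 21.5 CPM in WT Th2 cells, with no overlap. Of the 8 plasma cell markers 3 rose and 2 fell (1149 and 1137 CPM in KO Th2 cells, 680 and 618 CPM in WT Th2 cells). Jchain rose by 3.63 ± 1.23 (log2, SE, edgeR adjusted p = 0.037). At 2.19 and 13.6 CPM in KO Th2 cells, Jchain was a small part of the plasma cell sum, which came mostly from other genes of the list. The part of these markers in the immunoglobulin values was not tested.

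Igkv5-43 was the member called higher in KO cells in naive cells and in both cultures, although both culture calls were lost without single libraries. Its exon was 99.0% identical to that of Igkv5-45, with a shared run of 193 bases, so its counts are uncertain. These comparisons share no library, but they come from the same fit, and the labels do not say whether they share mice. Whether the KO effect itself differed between conditions was tested as an interaction. For the effect in Th1 cultures minus that in Th2 cultures edgeR called no member (background 32.4%; 1 at an unadjusted p under 0.05; DESeq2 4). For Th2 cultures minus naive cells it called none (background 24.5%; 5 at an unadjusted p under 0.05; DESeq2 2), and for Th1 cultures minus naive cells it called 1 higher, Igkv12-89 (background 18.1%, higher 7.04%). Igha, for example, was called in naive and Th1 cells and not in Th2 cells, but no interaction for it was called.

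With the inhibitor 1 member was called over both kinds of culture. In Th1 cultures no member was called between SGC0946 and SGC0649 by edgeR (background 0.319%), with 2 at an unadjusted p under 0.05 and none called by DESeq2. Only 45 members had more than 3 counts over either group. The members summed to 99.0 and 91.8 CPM with SGC0946 and to 151 and 87.7 CPM with SGC0649. Ighm had a log2 fold change of -0.13 (95% interval -1.17 to 0.92) and Igkc one of -0.84 (-2.97 to 1.30), intervals that leave room for changes of several fold.

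In Th2 cultures the members summed to 153 and 92.3 CPM with SGC0946 and to 161 and 86.6 CPM with SGC0649, and 1 member fell with a background of 4.91%, 1.87% of all genes called lower. This was Igkv12-89, with no count in either SGC0946 library and 13 and 8 counts in the SGC0649 libraries, at least 7.14-fold higher with SGC0649 (edgeR adjusted p = 0.008). It also had no count in either WT Th2 library without a compound, so the control compound group was the one that differed from untreated cultures. The call was lost without WT Th2 SGC0946 replicate 1 (adjusted p = 0.0662) or replicate 2 (0.0508), and with only the libraries compared (0.124). Igha had 44 and 85 counts with SGC0946 and 1 and 1 with SGC0649, and was not called, at a log2 fold change of 5.82 (95% interval -0.63 to 12.3, adjusted p = 0.337). Ighm and Igkc had log2 fold changes of -0.11 (95% interval -1.16 to 0.93) and -0.23 (-2.27 to 1.81). Only 50 members had more than 3 counts over either group, which limits the share called.

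The largest differences of all were between cultures and naive cells. In WT Th1 cultures 84 of 165 members fell relative to WT naive cells and none rose, against a background of 53.4% of all genes called and 26.0% called lower, with a median log2 fold change of -4.39 (-3.36 with members that have an empty group set at their bound). In WT Th2 cultures 92 fell and none rose (background 58.4%, lower 28.2%), with a median of -5.35 (-3.46 at the bounds). Members were chosen by counts summed over all libraries, and naive libraries held 19079 to 99144 member counts against 893 to 3955 in cultures. Many could thus pass mainly through naive cells, so falls from naive cells, in either genotype, are not independent of the choice. For WT Th1 the count was 51 and 41 without WT Th1 replicate 1 or 2, and with WT naive replicate 1 or 2 left out it was 50 or 79. For WT Th2 it was 52 and 50 without WT Th2 replicate 1 or 2, and 59 or 84 with WT naive replicate 1 or 2 left out.

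The fall reached V and constant genes of all 3 chains and heavy J segments, the only J segments among the members. Ighm, at 93.3 and 76.5 CPM in WT Th1 cultures and 91.6 and 60.1 CPM in WT Th2 cultures, fell by 3.39 ± 0.49 and 3.55 ± 0.49 on the log2 scale relative to WT naive cells (SE, edgeR adjusted p = 0.00012 and 8e-05). Igkc fell by 4.14 ± 0.81 in WT Th1 cultures and by 5.04 ± 0.88 in WT Th2 cultures (adjusted p = 0.0013 and 0.0005). Igha fell by 7.49 ± 1.22 in WT Th1 cultures and by 5.72 ± 1.05 in WT Th2 cultures. Ighg2b had no count in WT Th2 cultures and 589 and 556 counts in WT naive cells, at least 368-fold higher in WT naive cells. Over summed levels WT naive cells were 13.7-fold above WT Th1 and 17.1-fold above WT Th2 cultures, with heavy constant genes 11.7-fold and 13.001-fold and Igkc 17.7-fold and 33.3-fold above them.

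Ighg1 and Ighe were not called between WT Th2 cultures and WT naive cells. Ighg1 was at 15.2 and 4.59 CPM in WT Th2 cultures and 10.99 and 12.6 CPM in WT naive cells, overlapping and with a log2 fold change of -0.23 ± 0.88 (SE, edgeR adjusted p = 0.843). Ighe had 19 and 8 counts in WT Th2 cultures and 0 and 9 in WT naive cells (1.61, adjusted p = 0.326). In WT Th1 cultures Ighg2c was at 6.47 and 8.35 CPM, against 35.9 and 4.16 CPM in WT naive cells, and was not called (-1.42, adjusted p = 0.313).

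In KO cells the drop was called for more members. KO Th1 cultures had 131 of 165 members lower and 1 higher than KO naive cells (background 57.6%, lower 27.6%, higher 30.0%), with a median of -5.25 (-4.43 at the bounds), and KO Th2 cultures had 129 lower and none higher (background 56.4%, lower 27.3%), with a median of -6.07 (-4.16 at the bounds). All 8 heavy constant genes, Igkc, all 3 lambda constant genes and all 4 J segments fell in both KO comparisons. Ighm fell by 3.92 in KO Th1 and by 2.90 in KO Th2 cultures, Igkc by 5.003 and 4.79 and Igha by 5.46 and 6.79. The member that rose was Ighv1-23, with 34 and 20 counts in KO Th1 cultures and 1 and 0 in KO naive cells (5.27 ± 0.91 SE, adjusted p = 5.2e-05).

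In shares of counts not corrected for gene length, Ighm held 77.3% to 93.2% of heavy constant counts in the 12 WT cultures, against 79.4% and 70.2% in WT naive cells. In KO cultures it took 55.2% and 46.7% (Th1) and 82.8% and 71.5% (Th2), against 26.1% and 33.4% in KO naive cells. Ighm counts over Igkc counts were 1.37 to 8.93 in the cultures. Ighm and Igkc had counts in all 16 cultures. Relative to WT naive cells, 5329 of all 19427 genes rose and 5047 fell in WT Th1 cultures, and 5869 rose and 5485 fell in WT Th2 cultures. Relative to KO naive cells, 5832 rose and 5358 fell in KO Th1 cultures, and 5660 rose and 5304 fell in KO Th2 cultures. Of the 8 plasma cell markers 3 rose and 2 fell in WT Th1 cultures and 4 rose and 2 fell in WT Th2 cultures relative to WT naive cells. The list summed to 421 and 409 CPM in WT Th1 and 680 and 618 CPM in WT Th2 cultures, against 367 and 339 CPM in WT naive cells. In KO cultures 3 of them rose and 5 fell (Th1) and 3 rose and 3 fell (Th2), and the list summed to 411 and 396 CPM in KO Th1 and 1149 and 1137 CPM in KO Th2 cultures, against 790 and 450 CPM in KO naive cells. Within it Jchain had 6 to 130 counts per culture, and Tnfrsf17, a plasma cell receptor, 1 count over all cultures.

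Relative to naive cells, 53.4% of all genes were called in WT Th1, 58.4% in WT Th2, 57.6% in KO Th1 and 56.4% in KO Th2 cultures. Of the 12 B cell markers, 2 rose and 3 fell in WT Th1 and likewise 2 rose and 3 fell in WT Th2 cultures relative to WT naive cells. In KO cultures 6 of 12 fell in Th1 and 5 of 12 in Th2 with none higher. The list summed to 7.72 to 49.4 CPM over the cultures. Of the myeloid and dendritic markers 6 of 8 fell and 1 rose in WT Th1 cultures, and 5 fell in WT Th2 cultures with none higher, and Siglech, a plasmacytoid dendritic cell receptor, had no count in any culture. Their part in the immunoglobulin values was not tested.

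**Figure D4:**
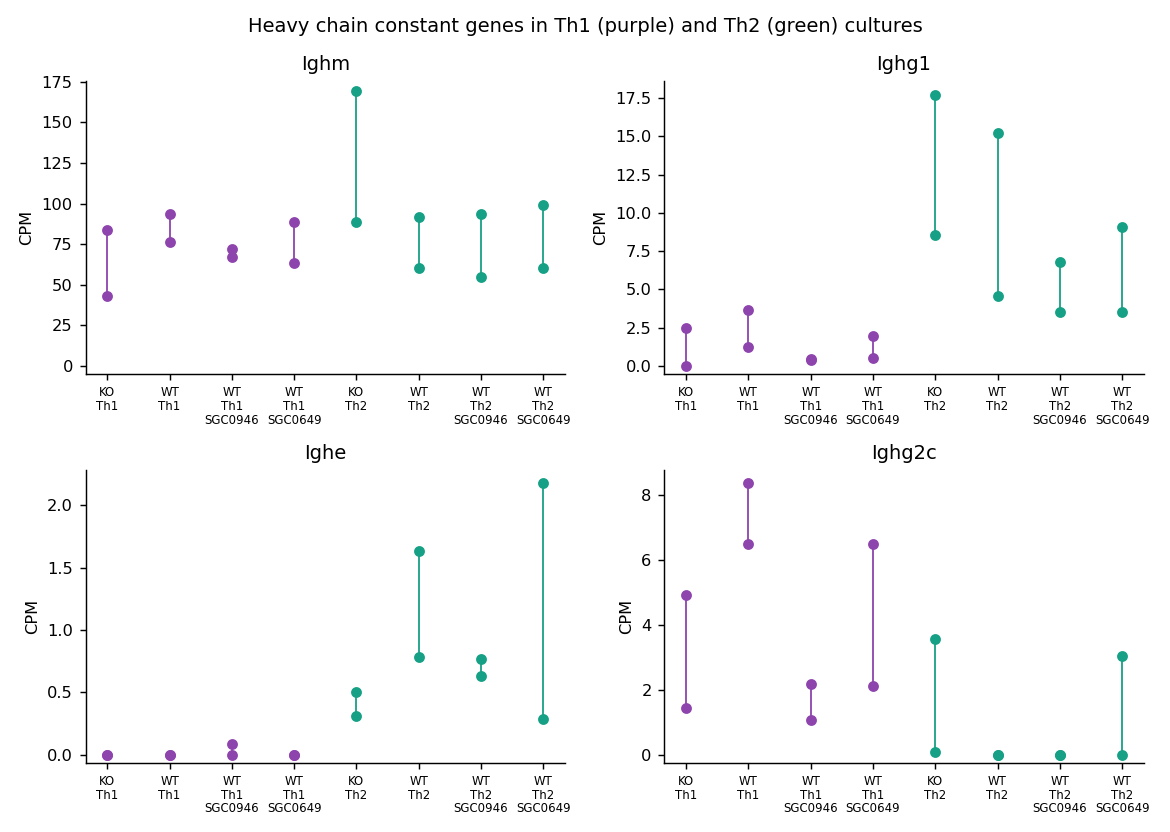
Levels of Ighm, Ighg1, Ighe and Ighg2c in the 16 culture libraries, in CPM, with the 4 Th1 groups left of the 4 Th2 groups and 1 point for each library. Ighg1 reaches 3.64 CPM at most in Th1 cultures and is at least 3.52 CPM in Th2 cultures, Ighe has counts in 1 Th1 culture and in all 8 Th2 cultures, and Ighm overlaps throughout.

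Few members were called between Th1 and Th2 cultures. Between WT Th1 and WT Th2 cultures edgeR called no member (background 40.0%), with 4 at an unadjusted p under 0.05 and 4 called by DESeq2. Only 45 members had more than 3 counts over either group, which limits this share. Ighg1 was at 3.64 and 1.26 CPM in WT Th1 and 15.2 and 4.59 CPM in WT Th2 cultures (log2 fold change -2.04, adjusted p = 0.166). Ighe had no count in WT Th1 cultures and 19 and 8 counts in WT Th2 cultures (adjusted p = 0.0594), and Ighg2c had 80 and 106 counts in WT Th1 cultures and none in WT Th2 cultures (adjusted p = 0.0701).

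Between KO Th1 and KO Th2 cultures 1 member was higher and 1 lower (background 44.9%, higher 21.1%, lower 23.8%). Here 90 members had more than 3 counts over either group. Ighg1 was at 2.49 and 0 CPM in KO Th1 and 8.58 and 17.7 CPM in KO Th2 cultures, a log2 fold change of -3.34 ± 1.17 (SE, edgeR adjusted p = 0.0387). That call was lost without KO Th1 replicate 2 (0.179), KO Th2 replicate 1 (0.0501) or KO Th2 replicate 2 (0.172), under voom (0.066) and with only the libraries compared (0.179). Ighv1-23 had 34 and 20 counts in KO Th1 and 0 and 1 in KO Th2 cultures (5.17, adjusted p = 0.000112). Without a library the count of calls was 5 (KO Th1 replicate 1), 7 (KO Th1 replicate 2), 11 (KO Th2 replicate 1) and 4 (KO Th2 replicate 2).

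After these values were seen, all 8 Th1 cultures were set against all 8 Th2 cultures, whatever their genotype or compound. By that test 5 members were higher and 2 lower (background 55.7%, higher 26.8%, lower 28.9%). The share was below that of all genes, but many members had few counts in the cultures. These libraries include those whose isotype values prompted the comparison, so it is not independent of them. Ighg1 had a lowest, median and highest level of 0, 0.90 and 3.64 CPM in Th1 cultures and 3.52, 7.68 and 17.7 CPM in Th2 cultures, a log2 fold change of -2.84 ± 0.67 (SE, edgeR adjusted p = 0.00386). The ranges met at their ends, where 1 Th1 library lay above 2 of the Th2 libraries. Ighe had a count in 1 of 8 Th1 libraries and in 8 of 8 Th2 libraries, 1 count against 77, and its log2 fold change was -5.64 ± 1.35 (SE, adjusted p = 0.00506).

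Ighg2c went the other way. It had 396 counts in 8 of 8 Th1 libraries and 67 counts in 3 of 8 Th2 libraries, with a lowest, median and highest level of 1.06, 3.53 and 8.35 CPM in Th1 cultures and 0, 0 and 3.54 CPM in Th2 cultures (log2 fold change 4.75 ± 1.71 SE, edgeR adjusted p = 0.0420). Ighd, with 97 counts over the Th1 and 25 over the Th2 libraries, was higher in Th1 cultures by 1.82 (adjusted p = 0.0140), and Iglc3, with 50 against 8, by 2.51 (0.0106). Ighj4, with 13 against 1, was higher by 3.15 (0.00859), and Ighv1-23, which rests on the KO Th1 libraries, by 1.72 (0.0284). Ighm, at a lowest, median and highest level of 42.9, 74.2 and 93.3 CPM in Th1 cultures and 54.4, 90.2 and 169 CPM in Th2 cultures, overlapped and was not called (-0.26, adjusted p = 0.391). In B cells, IL-4 is known to direct switching to Ighg1 and Ighe, and interferon gamma to Ighg2c.

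Ighv1-5 had culture counts in no more than 1 library of a group. Ighv1-5, whose sequence is given above, had 129 and 82 counts in KO naive cells and 10 and 212 in WT naive cells, overlapping. In cultures it had 0 and 8 counts in KO Th1, 0 and 12 in KO Th2, 0 and 10 in WT Th2, 0 and 8 in WT Th1 with SGC0946 and 0 and 24 in WT Th2 with SGC0946. Every culture count of Ighv1-5 thus came from a library numbered 2 by its title, although the columns of these SGC0946 libraries carry the number 1 in the count table. This pattern was singled out after its values were seen. Culture counts of Ighv4-1 and Ighv1-66, among other sparse segments, also came only from libraries numbered 2. Ighv1-5 had none in WT Th1 cultures or with SGC0649. With 48 counts at the lowest over all V segments, absence of a segment from a culture says that it was not detectable at this depth.

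**Figure D5:**
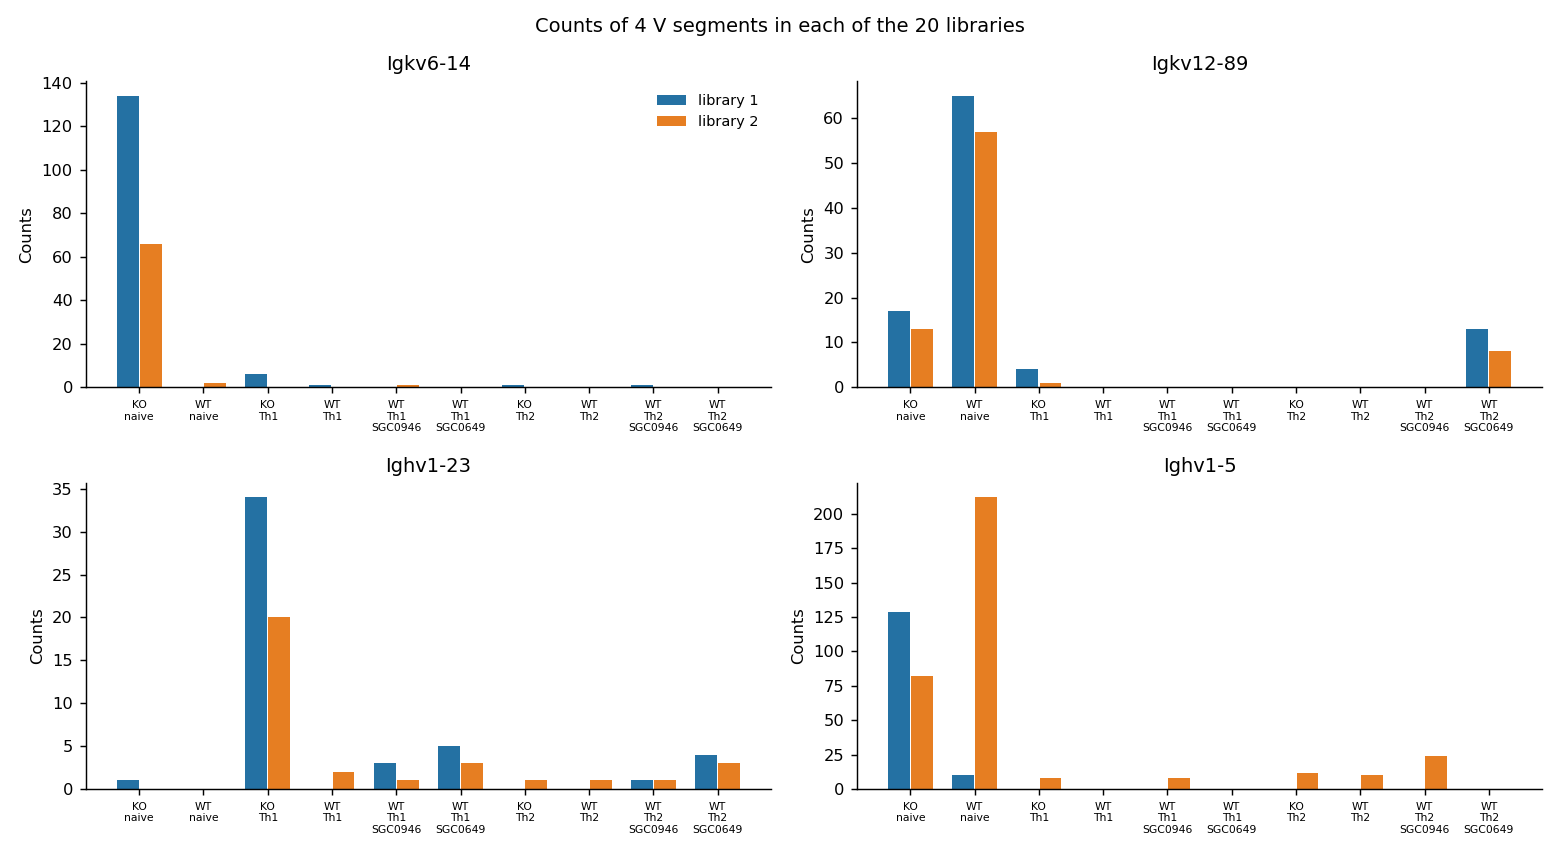
Counts of Igkv6-14, Igkv12-89, Ighv1-23 and Ighv1-5 in each of the 20 libraries, with a bar for each of the 2 libraries of a group. Igkv6-14 is high in the 2 KO naive libraries at 134 and 66 counts, Igkv12-89 in WT naive cells at 65 and 57, Ighv1-23 in KO Th1 cultures at 34 and 20, and Ighv1-5 in naive cells, with 212 counts in WT naive replicate 2.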

How the data were processed

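Polarised and naive mouse CD4+ T cells were profiled by RNA sequencing. The authors counted reads per gene with featureCounts 1.5.3 at strand setting 2 on Ensembl release 84 of GRCm38, per the file headers, and deposited raw counts with each gene's length in bases and biotype. The aligner is not given in the sources used here. The submitters' processing notes also name edgeR and limma. No column of samples was left out.

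From these counts, edgeR 4.0.16 in R 4.3.3 was run on all 20 libraries with 1 mean per group (trimmed mean of M values, robust quasi-likelihood F test, 10 residual degrees of freedom and a common coefficient of biological variation of 0.101). It covered the 19427 genes with 20 or more summed counts, with Benjamini-Hochberg adjustment over all of them. Library factors were 0.875 to 1.08. SE is the log2 fold change over the root of F. Folds against an empty group use 3 counts over that group. The fits were also run on simulated data with the same low spread in every gene and with changes only in genes above the lowest counts. That run does not cover members as variable or as low in counts as many here.

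Alternatives were DESeq2 1.42.0, limma 3.58.1 with voom, DESeq2-style size factors, edgeR's own filter and none, only the libraries compared, a replicate block and leaving out each library. Text names all constant and J members, the V members with the most counts in each chain, and in each comparison up to 6 called members highest and 6 lowest in log2 fold change among those with 200 or more summed counts, beside Dot1l, the members nearest the threshold and up to 4 genes of each list. Others are said to be chosen after their values were seen. Members, rule and the 8 gene lists were chosen with earlier results of these data known. Sequences come from the GENCODE annotation and genome of GRCm38. A column of each SGC0946 group carries replicate number 1 where the sample's title gives 2, and was matched by library number and title. Promoters were not analysed here, and single genes of the lists are not all reported here.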

Additional observations from a re-analysis of the deposited data

Results flagged for a closer look

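Igkv12-89 stood out because the KO effect in Th1 cultures differed from that in naive cells by a test of the difference itself, an interaction of 6.26 on the log2 scale (edgeR adjusted p = 0.0126). It was lower in KO than in WT naive cells (17 and 13 counts against 65 and 57) and had 4 and 1 counts in KO Th1 cultures against none in WT Th1 cultures, so the fitted size depends on the prior count and rests on 5 counts in culture. Without KO Th1 replicate 1 the interaction was 5.04 and no longer called (adjusted p = 0.171). No cause was tested.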

How the results depend on the processing

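The main counts were 36 for KO against WT naive cells, 7 for Th1 and 5 for Th2 cultures, 0 and 1 for SGC0946 in Th1 and Th2 cultures, 84 and 92 for WT Th1 and Th2 cultures against naive cells, 132 and 129 for KO Th1 and Th2 cultures, 0 and 2 for Th1 against Th2 in WT and KO cells, and 0, 1 and 0 for the KO effect in Th1 minus Th2, Th1 minus naive and Th2 minus naive. DESeq2 gave 13 for KO against WT naive cells, 11 for KO against WT Th2, 44, 59, 72 and 71 for the cultures against naive cells in that order, 4 and 6 for Th1 against Th2 in WT and KO cells, and 4 and 2 for the KO effect in Th1 minus Th2 and Th2 minus naive. Voom gave 69 for KO against WT naive, 2 for KO against WT Th2, 1 and 4 for Th1 against Th2 in WT and KO cells, and 1, 6 and 9 for the KO effect in Th1 minus Th2, Th1 minus naive and Th2 minus naive. With no filter on low counts these became 103, 42 and 39 for KO against WT naive, Th1 and Th2, 10 and 17 for SGC0946 in Th1 and Th2, 129 for WT Th1 against naive, 20 and 45 for Th1 against Th2 in WT and KO, and 17, 26 and 22 for the KO effect differences. With only the libraries compared they were 18 for KO against WT Th1, 2 for SGC0946 in Th1, and 10 and 6 for Th1 against Th2 in WT and KO. edgeR's own filter, which 126 of 165 members passed, gave 2 for WT Th1 against WT Th2 and 1 for the KO effect in Th2 minus naive. The comparison of all Th1 with all Th2 cultures, added after the data were seen, gave 7. The causes were not tested.

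Labels give the libraries of a group the numbers 1 and 2 without saying what is shared, so pairing could not be taken from the labels and no library was paired. With the replicate block the counts were 67 for KO against WT naive, 8 for KO against WT Th2, 3 and 11 for Th1 against Th2 in WT and KO, and 1, 4 and 4 for the KO effect in Th1 minus Th2, Th1 minus naive and Th2 minus naive. Deviations of libraries with the same number correlated across 10934 genes at -0.0627 to 0.593. Summed immunoglobulin CPM was higher in library 1 than in library 2 of every group except KO Th2 (144 and 412 CPM). What equal numbers share was not tested.

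Leaving out 1 library gave 12 to 71 for KO against WT naive, 2 to 5 for Th1, 0 to 15 for Th2, 0 to 1 for SGC0946 in Th2, 41 to 79 and 50 to 84 for WT Th1 and Th2 against naive, 102 to 136 and 102 to 137 for KO Th1 and Th2 against naive, 0 to 1 and 4 to 11 for Th1 against Th2 in WT and KO, and 0 to 2, 1 to 4 and 0 to 3 for the KO effect in Th1 minus Th2, Th1 minus naive and Th2 minus naive. Among calls, the sign reversed for Ighv1-15 in KO against WT Th2, at -2.37 without KO Th2 replicate 2, its values over the libraries left out being -2.37 to 7.95. Log2 fold changes that were not called also changed sign, among them Igha in KO against WT Th2 (-0.43 to 5.64), Ighg2c in WT Th1 against naive (-2.27 to 0.84) and Ighg1 in WT Th2 against naive (-1.34 to 0.37). Of 109 calls on named members, 54 held under every alternative.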
